A study of Oryza sativa with 14 samples.

Results

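A set of 5 rice genes that act where leaves turn excess light into heat was followed in 14 leaf RNA-seq libraries of the japonica cultivar Koshihikari. The genes were given as a list of 5 loci among the 37727 genes counted: PSBS1 (Os01g0869800), PSBS2 (Os04g0690800), VDE (Os04g0379700), ZEP (Os04g0448900) and LYCE (Os01g0581300). The list was drawn up with the difference between the fertilizer regimes already known, so the values for that difference are a description here. Calls of the 5 genes for it are given only beside the share over all genes, and nothing is read from them. The description deposited for each locus names the protein meant. Both PSBS loci are described as a 22-kDa photosystem II protein, and the others as violaxanthin de-epoxidase, zeaxanthin epoxidase and lycopene epsilon-cyclase.

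PsbS is a thylakoid membrane protein that senses the acidity of the thylakoid lumen and switches on the rapidly reversible part of non-photochemical quenching, by which the photosystem II antenna sheds absorbed light as heat. The xanthophyll cycle supports the same process: violaxanthin de-epoxidase turns violaxanthin into zeaxanthin in strong light, and zeaxanthin epoxidase turns it back in weak light and also supplies precursors of abscisic acid. Both pigments come from the branch of the carotenoid pathway with beta rings only, whereas lycopene epsilon-cyclase adds the epsilon ring that sends lycopene toward lutein.

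The control plants grew with chemical fertilizer (CF), with nitrogen at 56 kg per hectare, PO4 at 176, K at 56, Mg at 90 and SiO2 at 120. The others grew with hairy vetch as green manure (GM) and no chemical fertilizer, from 30 kg of vetch seed per hectare in 2023 and 60 kg in 2024. Seedlings of all groups had 19 kg per hectare of nitrogen, and as much PO4 and K, in the nursery. Leaves were taken between 9 and 10 in the morning, from 4 plants per treatment in 2023, at 47 days after transplanting, and from 3 per treatment in 2024, at 38 days. The design text speaks of the uppermost leaf that had fully expanded and the protocol of the largest leaf. Each leaf is a biological replicate, but the plots behind a treatment are not stated, so p-values measure the spread between leaves, and treatment and field cannot be told apart.

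Library totals lay between 8161851 and 11375515 reads in 2023 and between 13224671 and 23367369 in 2024. Leaf markers were high in all libraries (5 genes for Rubisco subunits, Rubisco activase and an antenna protein, summed to 37300 to 149000 CPM, that is, counts scaled to library size). Of 4 root markers, 3 were at 0 in every library, and of 3 meristem markers, 2 were. In 2023, the first principal component of all genes tested in that year placed green manure libraries 1 and 2 at 25 and 56. Green manure libraries 3 and 4 stood at 1.1 and 0.9, and the chemical fertilizer libraries at -29.8 to -7. Fold changes without green manure libraries 1 and 2 are given beside the 2023 values of the members and of the called list genes.

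Among the 5 genes, LYCE was higher with green manure in both years and PSBS2 was lower in 2023, with overlap between the regimes in 2024, whereas the means of PSBS1, VDE and ZEP differed by at most 0.23 on the log2 scale. By year, PSBS1 was higher in 2024 under either regime. Levels are CPM scaled by TMM over all 14 libraries and are not corrected for gene length, so they are compared between libraries and not between genes. In whole leaves, fewer cells of a type and less RNA per cell cannot be told apart.

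**Figure D1:**
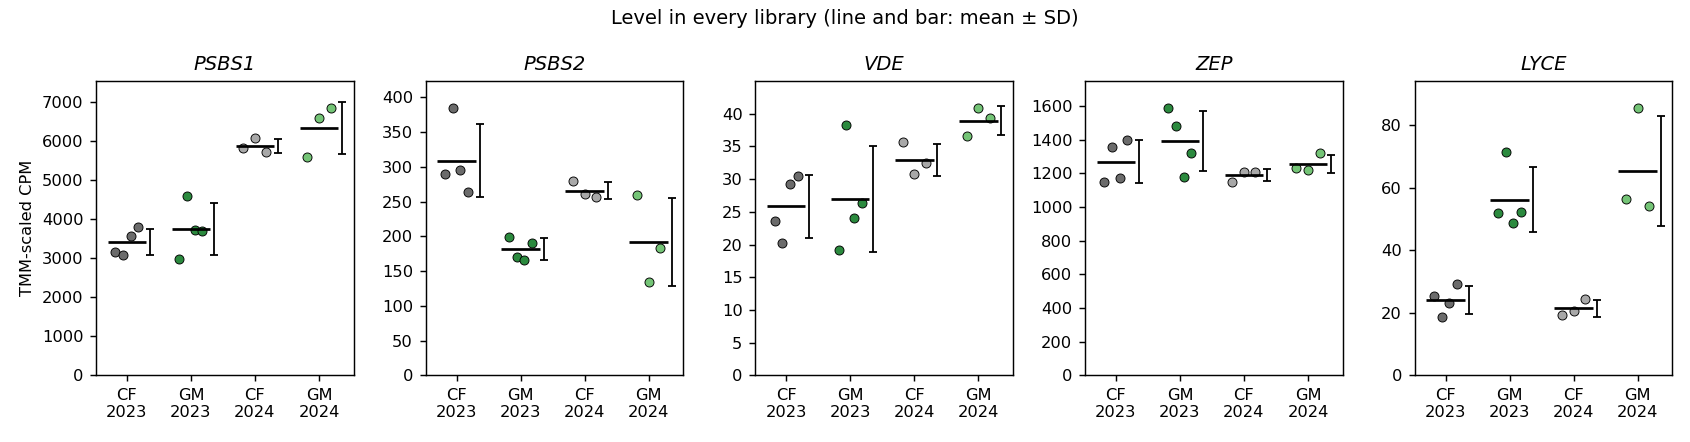
Points are single libraries (vertical axis: TMM-scaled CPM; horizontal axis: treatment and year; n = 4 in 2023 and 3 in 2024), with the group mean as a line and its SD as a bar. The LYCE points with green manure lie between 48.7 and 85.6 CPM and those with chemical fertilizer between 18.6 and 29.1, while the PSBS1 points separate by year.

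Of the PsbS pair, PSBS1 is the form that mutants tie most closely to quenching in rice leaves. With chemical fertilizer its level in 2023 was 3170, 3090, 3570 and 3790 CPM in libraries 1 to 4 (mean 3400 ± 336, SD, n = 4), and with green manure 2980, 4590, 3720 and 3690 CPM (3740 ± 656, n = 4). In 2024 it was 5830, 6070 and 5710 CPM with chemical fertilizer (5870 ± 183, n = 3) and 5590, 6590 and 6850 CPM with green manure (6340 ± 666, n = 3). Within each year the regimes overlapped, and all 6 libraries of 2024 lay above all 8 of 2023. The log2 fold change for green manure was 0.13 ± 0.15 (SE) in 2023, 0.12 ± 0.12 in 2023 without green manure libraries 1 and 2, and 0.10 ± 0.11 in 2024. In order of level, chemical fertilizer and green manure of 2023 came first, then chemical fertilizer and green manure of 2024, and only the step between the years was free of overlap.

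PSBS2 is the second PsbS gene. In 2023 it stood at 290, 385, 296 and 264 CPM with chemical fertilizer (309 ± 52.9, n = 4) and at 199, 171, 166 and 191 CPM with green manure (182 ± 15.8, n = 4). The treatments did not overlap in that year. In 2024 the values were 280, 261 and 257 CPM with chemical fertilizer (266 ± 12.3, n = 3) and 259, 134 and 183 CPM with green manure (192 ± 62.9, n = 3). Green manure library 1 lay among the chemical fertilizer libraries and the other two below them. The log2 fold change was -0.77 ± 0.12 in 2023 and -0.48 ± 0.21 in 2024. The value was -0.79 ± 0.13 in 2023 without green manure libraries 1 and 2. For 2024 it was -0.76 ± 0.12 without green manure library 1 and -0.28 ± 0.14 without library 2, so single libraries set its size. From low to high the groups ran green manure 2023, green manure 2024, chemical fertilizer 2024 and chemical fertilizer 2023, and each overlapped the next.

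The 2 PSBS genes are close relatives. The deposited counts are called unique exon reads, and how reads shared by both loci were handled is not given in the sources used here. For every 100 PSBS1 reads, the chemical fertilizer libraries of 2023 held 9.15, 12.5, 8.29 and 6.95 PSBS2 reads (9.22 ± 2.36, n = 4) and the green manure libraries 6.67, 3.73, 4.46 and 5.16 (5.01 ± 1.26, n = 4). In 2024 the chemical fertilizer libraries held 4.81, 4.3 and 4.5 (4.54 ± 0.255, n = 3) and the green manure libraries 4.63, 2.03 and 2.67 (3.11 ± 1.35, n = 3). The share of PSBS2 in the pair was thus highest in the chemical fertilizer leaves of 2023, and in 2024 the regimes overlapped.

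VDE, whose enzyme makes zeaxanthin when light is in excess, was counted from 218 to 680 reads per library. In 2023 its level was 23.6, 20.2, 29.2 and 30.4 CPM with chemical fertilizer (25.8 ± 4.78, n = 4) and 19.1, 38.2, 24 and 26.4 CPM with green manure (26.9 ± 8.13, n = 4). The lowest and the highest library of that year were both from green manure, libraries 1 and 2. In 2024 it was 35.6, 30.8 and 32.4 CPM with chemical fertilizer (32.9 ± 2.43, n = 3) and 36.6, 40.9 and 39.3 CPM with green manure (39 ± 2.16, n = 3). The regimes did not overlap in 2024, by a gap of about one CPM. The log2 fold change was 0.05 ± 0.20 in 2023 and 0.23 ± 0.10 in 2024, and -0.04 ± 0.15 in 2023 without green manure libraries 1 and 2. The order of the groups was the same as for PSBS1, with overlap between all neighbours except the regimes of 2024.

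ZEP, whose enzyme returns zeaxanthin to violaxanthin, was the least variable of the genes across libraries, with an SD of 0.144 on the log2 scale over all 14 (0.353 to 0.755 for the others). In 2023 it stood at 1150, 1360, 1170 and 1400 CPM with chemical fertilizer (1270 ± 129, n = 4) and at 1590, 1480, 1180 and 1320 CPM with green manure (1390 ± 180, n = 4). In 2024 it stood at 1150, 1210 and 1210 CPM (1190 ± 35.1, n = 3) and at 1230, 1220 and 1320 CPM (1260 ± 53.7, n = 3). The regimes overlapped in 2023 and were set apart in 2024 by a margin smaller than the SD of either group. The log2 fold change was 0.13 ± 0.13 in 2023 and 0.07 ± 0.09 in 2024, and -0.03 ± 0.11 in 2023 without green manure libraries 1 and 2.

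Set against each other, the opposing enzymes of the cycle gave 2.06, 1.49, 2.49 and 2.16 VDE reads per 100 ZEP reads with chemical fertilizer in 2023 (2.05 ± 0.417, n = 4) and 1.2, 2.58, 2.03 and 2 with green manure (1.95 ± 0.566, n = 4). In 2024 the ratio was 3.09, 2.55 and 2.67 (2.77 ± 0.286, n = 3) and 2.98, 3.35 and 2.98 (3.1 ± 0.214, n = 3). The regimes overlapped in both years.

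LYCE showed the largest difference between the regimes of the 5 genes. In 2023 its level was 25.5, 18.6, 23.2 and 29.1 CPM with chemical fertilizer (24.1 ± 4.39, n = 4) and 52.1, 71.5, 48.7 and 52.4 CPM with green manure (56.2 ± 10.4, n = 4). In 2024 it was 19.4, 20.5 and 24.6 CPM with chemical fertilizer (21.5 ± 2.73, n = 3) and 56.4, 85.6 and 54.1 CPM with green manure (65.4 ± 17.5, n = 3). No green manure library overlapped a chemical fertilizer library in either year, and library 2 was the highest of the green manure group in both. The level was 2.32-fold higher with green manure in 2023 (log2 fold change 1.21 ± 0.15) and 3-fold higher in 2024 (1.58 ± 0.18). It was 1.07 ± 0.13 in 2023 without green manure libraries 1 and 2, and 1.35 ± 0.12 in 2024 without green manure library 2. The chemical fertilizer groups of both years overlapped each other, and so did the green manure groups.

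The partner at the same branch point is LCYB (Os02g0190600), lycopene beta-cyclase, whose log2 fold change for green manure was 0.02 ± 0.10 in 2023 and 0.05 ± 0.10 in 2024; neither passed the test. For every 100 LCYB reads there were 18.8, 14.4, 14.6 and 17.6 LYCE reads with chemical fertilizer in 2023 (16.3 ± 2.22, n = 4) and 36.1, 45.7, 33.7 and 33.9 with green manure (37.3 ± 5.68, n = 4). In 2024 there were 8.66, 9.68 and 12.4 with chemical fertilizer (10.3 ± 1.95, n = 3) and 29.5, 37.9 and 22.4 with green manure (29.9 ± 7.75, n = 3). This ratio needs no scaling of the libraries, and the regimes did not overlap in either year.

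**Figure D2:**
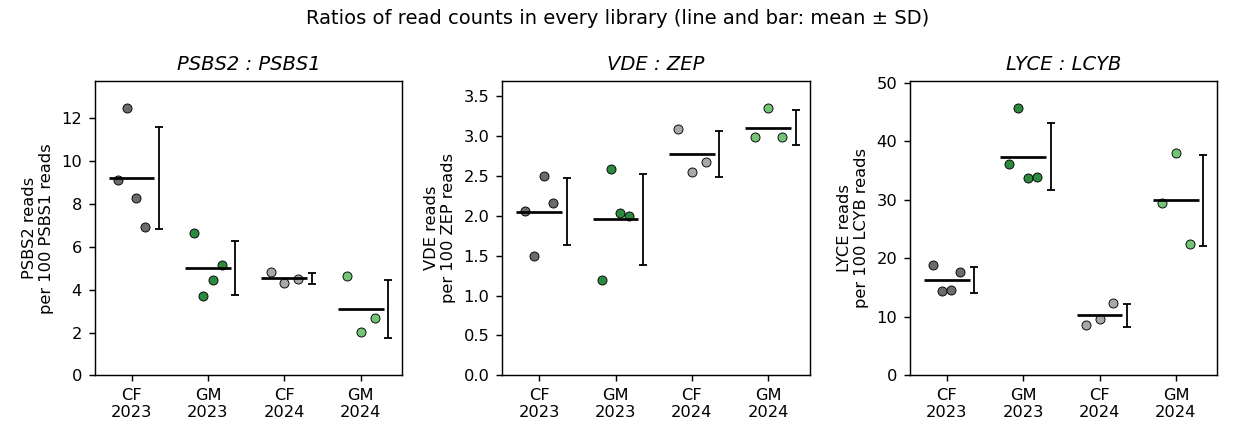
Points are ratios of raw read counts in single libraries, not corrected for gene length (vertical axes: reads of the first gene per 100 reads of the second), with group means as lines and SD as bars. LYCE per 100 LCYB reads runs from 8.66 to 18.8 with chemical fertilizer and from 22.4 to 45.7 with green manure. Within each regime the VDE per 100 ZEP reads of 2024 lie above those of 2023. That difference did not pass after adjustment (adjusted exact permutation p = 0.0856 in each). With these few libraries the test could pass only if several ratios reached its lowest possible p, so no conclusion is drawn from this.

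Markers of other tissues and states were measured beside these values. OsLsi1, a silicon channel of roots and the one root marker above 0, stood at 7.96 to 16.7 CPM with chemical fertilizer and 15.6 to 29.4 CPM with green manure in 2023, and at 19.3 to 24.8 and 26.5 to 34.4 CPM in 2024. Its fold change did not pass the test in either year (edgeR's quasi-likelihood test with Benjamini-Hochberg adjustment, adjusted p = 0.0633 and 0.136). The summed leaf markers ranged from 37300 to 53900 CPM with chemical fertilizer and from 46700 to 73000 CPM with green manure in 2023, and from 93500 to 94500 and from 106000 to 149000 CPM in 2024. Senescence markers (2 genes, SGR and OsNAP, summed) ranged from 14.2 to 25.4 and from 13.2 to 27.3 CPM in 2023, and from 27 to 38.5 and from 18.1 to 31.5 CPM in 2024. The 2 genes went opposite ways from 2023 to 2024. SGR rose by 1.18 ± 0.21 (log2) with chemical fertilizer and 1.03 ± 0.22 with green manure (edgeR's quasi-likelihood test, adjusted p = 0.000301 and 0.00137). OsNAP gave -0.57 ± 0.48 and -1.2 ± 0.5 and did not pass (adjusted p = 0.366 and 0.076). Of the 5 leaf markers, 0 passed the test between the regimes in 2023 and 2 in 2024, both genes for the Rubisco small subunit: RBCS3 at 1.12 ± 0.24 (adjusted p = 0.0428) and RBCS4 at 0.87 ± 0.18 (adjusted p = 0.0258) on the log2 scale. From 2023 to 2024, Rubisco activase rose by 1.37 with chemical fertilizer and 1.2 with green manure. RBCS2 rose by 1.72 and 1.73 and RBCS4 by 0.94 and 1.37, all past the test. RBCS3 passed with green manure only (0.55 and 1.39). The antenna gene CAB1R did not pass (0.14 and 0.1). The part of these shifts in the values of the 5 genes was not tested.

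At an adjusted p under 0.05 with edgeR's quasi-likelihood test over all genes, 2 of the 5 genes passed in 2023 (LYCE higher, PSBS2 lower) and 1 of 5 in 2024 (LYCE higher). Of all genes tested, 2.48% passed in 2023 (460 of 18577; 1.63% higher and 0.851% lower) and 3.25% in 2024 (626 of 19261; 1.89% higher). The regimes did not overlap for 2 of 5 genes in 2023 and 3 of 5 in 2024, against 9.96% and 22.7% of all tested genes. Since this contrast was used to choose the genes, nothing is read from these counts. The difference between the years in the effect of green manure was 0.38 ± 0.25 for LYCE, 0.29 ± 0.24 for PSBS2, 0.19 ± 0.25 for VDE, -0.03 ± 0.20 for PSBS1 and -0.05 ± 0.17 for ZEP (log2, 2024 minus 2023).

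**Figure D3:**
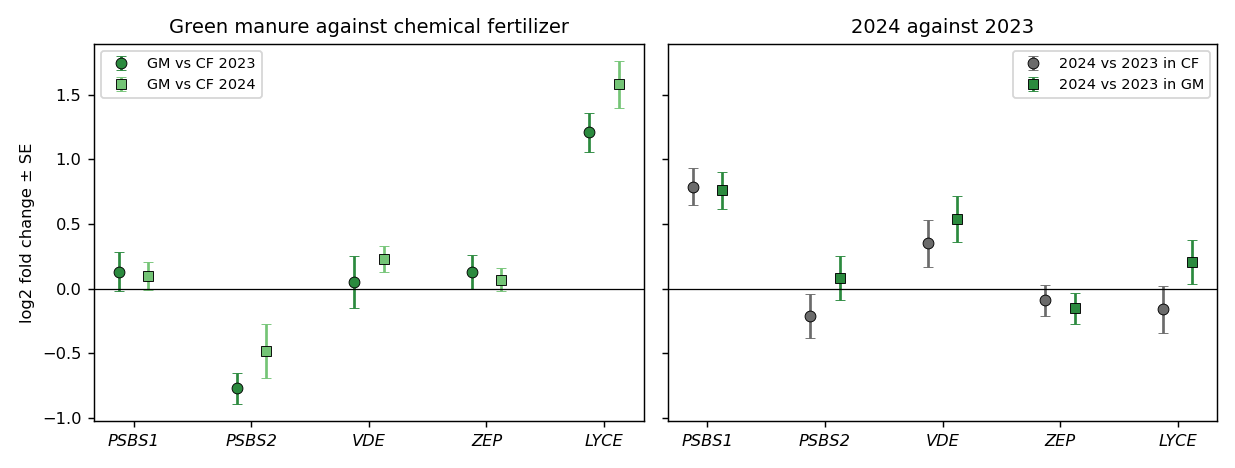
Points are log2 fold changes with SE as bars, for green manure against chemical fertilizer within each year (left) and for 2024 against 2023 within each regime (right). On the left, LYCE stands at 1.21 and 1.58 and PSBS2 at -0.77 and -0.48; on the right, PSBS1 stands at 0.79 and 0.76.

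The comparison of 2024 with 2023 within a regime is not part of the rule for the genes and was tested, although earlier results of these data were known when the tests were chosen. The year, the age of the plants, the seed rate of the vetch (in the green manure groups) and the sequencing of each set cannot be told apart. PSBS1 rose by 0.79 ± 0.14 on the log2 scale with chemical fertilizer (adjusted p = 0.000175) and by 0.76 ± 0.14 with green manure (adjusted p = 0.000266, edgeR's quasi-likelihood test of all 14 libraries with Benjamini-Hochberg adjustment). It was higher in 2024 in every library of each regime, and its change ranged from 0.66 to 0.90 over the fits that left out 1 library each and was 0.81 in both regimes without green manure libraries 1 and 2 of 2023. VDE rose with green manure, by 0.54 ± 0.18 (adjusted p = 0.0252), with overlap between the years. That call was lost in 5 of the 14 fits that left out 1 library, with adjusted p up to 0.0654, and these were green manure libraries 1, 3 and 4 of 2023 and 2 and 3 of 2024. With chemical fertilizer VDE gave 0.35 ± 0.18 and did not pass (adjusted p = 0.132), but passed without green manure library 2 of 2023 (0.37 ± 0.13, adjusted p = 0.0262) and without libraries 1 and 2 (0.37 ± 0.12, adjusted p = 0.0123). With only the libraries of one regime in the fit, VDE passed with chemical fertilizer (0.36 ± 0.12, adjusted p = 0.0224) and not with green manure (0.54 ± 0.19, adjusted p = 0.0504), so its call in either regime depended on the libraries in the fit.

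The other members did not pass in either regime. PSBS2 gave -0.21 ± 0.17 with chemical fertilizer (adjusted p = 0.332) and 0.08 ± 0.17 with green manure (adjusted p = 0.743). ZEP gave -0.09 ± 0.12 (adjusted p = 0.556) and -0.15 ± 0.12 (adjusted p = 0.346). LYCE gave -0.16 ± 0.18 (adjusted p = 0.512) and 0.21 ± 0.17 (adjusted p = 0.355). In all, 1 of 5 genes passed with chemical fertilizer and 2 of 5 with green manure, all of them higher, where 39.9% and 37.8% of all 19805 tested genes passed (19.5% and 18.6% higher), so a call by year was common in these leaves. The years did not overlap for PSBS1 and VDE with chemical fertilizer, 2 of 5, and for PSBS1 with green manure, 1 of 5, against 47.9% and 38.4% of all genes.

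The year contrasts depended on how the libraries were scaled. The 10 genes with most reads held 9.27% to 15.3% of each library in 2023 and 16% to 19.7% in 2024, and with plain library totals the median of all genes shifted by -0.49 (chemical fertilizer) and -0.52 (green manure), against -0.05 with TMM. With plain totals PSBS1 still rose, by 0.35 (adjusted p = 0.00754) and 0.29 (adjusted p = 0.0223). ZEP then fell by 0.53 (adjusted p = 0.000657) and by 0.62 (adjusted p = 0.000166). LYCE fell by 0.60 with chemical fertilizer (adjusted p = 0.00211) and PSBS2 by 0.66 (adjusted p = 0.0202), while VDE with green manure gave 0.08 (adjusted p = 0.667). The sign changed for 3 values that had not passed with TMM: VDE with chemical fertilizer (0.35 to -0.08), PSBS2 with green manure (0.08 to -0.38) and LYCE with green manure (0.21 to -0.26). Relative to the median of all genes, PSBS1 changed by 0.84 and 0.81 and ZEP by -0.04 and -0.10 under either scaling.

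**Figure D4:**
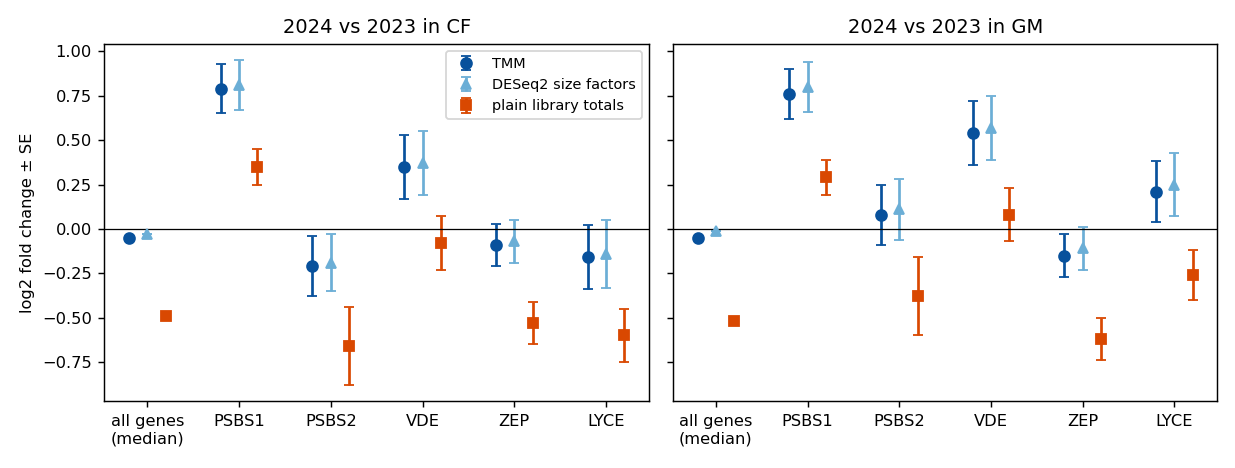
Points are log2 fold changes of 2024 against 2023 (bars: SE) with chemical fertilizer (left) and green manure (right), under TMM, DESeq2 size factors and plain library totals, with the median of all genes at the far left. PSBS1 lies above 0 in all 6 cases, from 0.29 to 0.81, and the plain totals shift every gene and the median downward together.

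Scaling also touched the comparison of regimes, where plain totals moved the median of all genes to -0.18 in 2023 and -0.21 in 2024. LYCE then gave 1.03 and 1.36 and PSBS2 -0.95 and -0.67, whereas PSBS1 (-0.06 and -0.12) and ZEP (-0.06 and -0.15) changed sign in both years and VDE (-0.15) in 2023. Among all called genes, the share that was higher with green manure went from 65.7% to 24.4% in 2023 and from 58.1% to 17.1% in 2024.

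For the ratios of reads, which need no scaling, the years were compared with a two-sided exact permutation test in each regime, 6 tests chosen after the values were seen. The 3-against-4 design has 35 splits and cannot give a p below 0.0286. PSBS2 per 100 PSBS1 reads was 0.492-fold in 2024 relative to 2023 with chemical fertilizer, without overlap (exact permutation p = 0.0571, adjusted 0.0856), and 0.621-fold with green manure (p = 0.143, adjusted 0.172). VDE per 100 ZEP reads was 1.35-fold with chemical fertilizer and 1.59-fold with green manure, both without overlap (exact permutation p = 0.0571 and adjusted 0.0856 in each). LYCE per 100 LCYB reads was 0.628-fold with chemical fertilizer (exact permutation p = 0.0286, adjusted 0.0856) and 0.802-fold with green manure (p = 0.257, adjusted 0.257). LCYB itself stood higher in 2024, at 198 to 224 CPM against 130 to 165 CPM with chemical fertilizer. With green manure it stood at 191 to 242 CPM against 144 to 157 CPM. None of the 6 tests of ratios passed after adjustment. Even at the lowest possible p of 0.0286, a ratio could pass over 6 tests only if several others reached that p too. No conclusion on a shift between the years is therefore drawn from this.

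Around these genes, a list of 22 other carotenoid genes ran from geranylgeranyl diphosphate synthase to the cleavage enzymes. It was chosen with earlier results of these data known, so its counts are a description. In 2023, 1 of the 20 tested rose, 1 fell and 18 did not pass, where 2.48% of all tested genes passed, and the median log2 fold change was -0.04 against 0 over all tested genes. OR (Os02g0651300), an ORANGE protein that stabilises phytoene synthase in Arabidopsis, rose by 0.66 ± 0.14 (adjusted p = 0.0205, edgeR's quasi-likelihood test). CYP97A4 (Os02g0817900), a P450 that hydroxylates beta rings on the way to lutein, fell by 0.55 ± 0.11 (adjusted p = 0.017). In 2024, 1 of 22 rose, 0 fell and 21 did not pass, where 3.25% of all genes passed, and the median was 0. The regimes of 2024 did not overlap for 8 of the 22, 3 higher and 5 lower with green manure, against 22.7% of all genes. With DESeq2, 4 genes of the list were called in 2024. PSY1 (Os06g0729000), a phytoene synthase at the entry of the pathway, rose by 0.72 ± 0.15 (adjusted p = 0.0306). OR gave 0.49 ± 0.12 in 2024 (adjusted p = 0.0504), CYP97A4 -0.39 ± 0.10 (adjusted p = 0.0603) and PSY1 0.29 ± 0.13 in 2023 (adjusted p = 0.289).

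The calls of OR and CYP97A4 were each lost in 3 of 8 fits that left out 1 library of 2023, namely chemical fertilizer library 1, 2 or 3 (adjusted p up to 0.0956 and 0.088). Their fold changes in these fits were 0.62 to 0.70 and -0.56 to -0.52, and between 149 and 180 of all genes were called in them, against 460. Without green manure libraries 1 and 2 both stayed called, at 0.48 ± 0.09 and -0.40 ± 0.09, and the list had 3 calls, 2 higher and 1 lower. PSY1 stayed called in 1 of 6 such fits of 2024, that without green manure library 1 (adjusted p up to 0.13 in the others), with fold changes of 0.57 to 0.89 over the 6. BCH3 (Os10g0533500), a beta-carotene hydroxylase, had the largest log2 fold changes of the list, 1.27 ± 0.48 in 2023 (adjusted p = 0.278) and 1.28 ± 0.27 in 2024 (adjusted p = 0.0672), and did not pass in either year; it was singled out after its values were seen.

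The second list held 14 genes for photoprotection and for the photosystem II antenna on which PsbS acts. This list, too, was chosen with earlier results of these data known, so its counts and median are a description. In 2023, 5 rose, 1 fell and 8 did not pass, where 1.63% of all tested genes rose and 0.851% fell, and the median log2 fold change was 0.48 against 0 over all genes. CAB2R (Os01g0600900, an LHCB1 gene of the major antenna) rose by 1.93 ± 0.27 (adjusted p = 0.00336) and LHCB2.1 (Os03g0592500) by 1.02 ± 0.20 (adjusted p = 0.0115), both with edgeR's quasi-likelihood test. The other LHCB1 gene of the list, CAB1R (Os09g0346500), gave 0.33 ± 0.17 and did not pass the same test (adjusted p = 0.376). CP26 (Os11g0242800), a minor antenna protein, rose by 0.83 ± 0.19 (adjusted p = 0.0318) and LHCB3 (Os07g0562700) by 0.71 ± 0.17 (adjusted p = 0.044). STN7 (Os05g0549100), the kinase of state transitions, rose by 0.63 ± 0.13 (adjusted p = 0.0179). ELIP1 (Os01g0246400), one of the early light-induced proteins made under light stress, fell by 0.97 ± 0.20 (adjusted p = 0.0295). Without green manure libraries 1 and 2 the 6 called genes stayed called, with STN7 at 0.40 ± 0.10, ELIP1 at -1.25 ± 0.19 and the others between 0.58 and 1.73. The list then had 8 calls, 6 higher and 2 lower.

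In 2024, 4 of the 14 rose, 0 fell and 10 did not pass, where 1.89% of all genes rose, and the median was 0.32. The regimes of 2024 did not overlap for 9 of the 14, all higher with green manure, against 22.7% of all genes in either direction. CAB2R rose by 1.45 ± 0.22 (adjusted p = 0.0101), LHCB2.1 by 0.89 ± 0.15 (adjusted p = 0.00968) and CP26 by 0.83 ± 0.18 (adjusted p = 0.0304). CP24 (Os04g0457000), another minor antenna protein, rose by 1.21 ± 0.25 (adjusted p = 0.0445). CAB1R gave 0.29 ± 0.12 and did not pass edgeR's quasi-likelihood test (adjusted p = 0.245). ELIP1 gave -0.47 ± 0.24 (adjusted p = 0.394) and STN7 0.33 ± 0.09 (adjusted p = 0.0768). Genes of cyclic electron flow and of the control of quenching gave small values: PGR5 0.16 and 0.18, PGRL1A -0.05 and 0.05, KEA3 0.12 and 0.17 and SOQ1 0.29 and 0.32 on the log2 scale in 2023 and 2024, none past the test. Some antenna genes, named here for their size, had larger values without passing edgeR's quasi-likelihood test. CP29 gave 0.80 ± 0.23 in 2023 (adjusted p = 0.0935) and 1.01 ± 0.23 in 2024 (adjusted p = 0.0603). CP24 gave 0.97 ± 0.26 in 2023 (adjusted p = 0.0902) and LHCB3 0.57 ± 0.15 in 2024 (adjusted p = 0.0706). The uncalled ELIP2 went the other way, at -0.35 and -0.24. CAB2R stayed called when any 1 library was left out, in both years, and every other call of the list was lost in some of these fits (highest adjusted p = 0.171). The fold changes kept their sign in all of them, from 0.81 to 1.15 for LHCB2.1, 0.55 to 0.70 for STN7 and -1.19 to -0.79 for ELIP1 in 2023. Leaving out 1 library moved the number of called list genes to between 1 and 9 in 2023 and between 1 and 11 in 2024. In 2023 it was 1 without chemical fertilizer library 1, 2 or 3 and 3 without green manure library 4. In 2024 it was 11 without green manure library 1 and at most 2 without any other library.

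**Figure D5:**
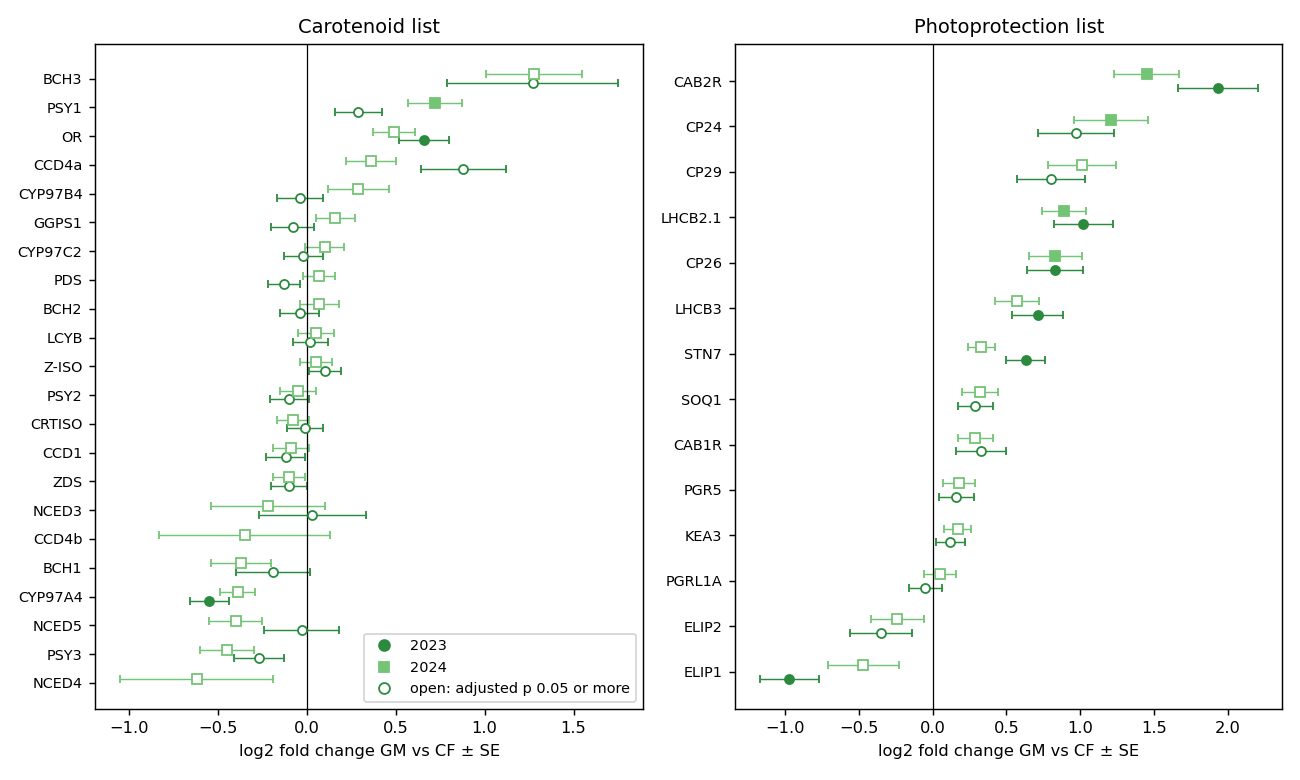
Points are log2 fold changes of green manure against chemical fertilizer (horizontal axis; bars: SE) for the tested genes of the carotenoid list (left) and of the photoprotection list (right), as circles for 2023 and squares for 2024, filled where the adjusted p was under 0.05. The carotenoid genes lie on both sides of 0, with BCH3 at 1.27 and 1.28, and CAB2R lies farthest right in the photoprotection list, at 1.93 and 1.45.

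Genes with the pattern most like each of the 5 across libraries were picked by the smallest root mean square difference of centred log2 CPM over the 14 libraries, from 10015 genes with a mean of at least 5 CPM and an informative description. Nearest to PSBS1 were the F-box gene OsFbox006 (0.0639), the glycolate oxidase GLO4 (0.0733) and a sedoheptulose bisphosphatase of the Calvin cycle (Os04g0234600, 0.0737). Nearest to PSBS2 were a Myb-type gene (Os05g0114700, 0.201), an allyl alcohol dehydrogenase-like gene (Os12g0226700, 0.206) and the Hsp70 gene OsMed37_1 (0.208). Those nearest to VDE were Os04g0303900 (0.105), described as an OB-fold nucleic acid-binding protein, the rubredoxin-like OsISC42 (0.131) and Os03g0209000 (0.136), similar to MFP1 attachment factor. ZEP had Os12g0137300 (0.0864), similar to a plastid protein of cytochrome c biogenesis, the SKP1-like OSK1 (0.0914) and OsWRKY90 (0.0942). The distances can be read against the members' own SD of 0.434, 0.416, 0.353 and 0.144 in the same order.

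Nearest to LYCE (SD 0.755) were PIL13 (0.196), a phytochrome-interacting bHLH factor, OSHAP5C (0.24), an NF-Y subunit, and the copper transporter COPT1 (0.259). With green manure PIL13 had log2 fold changes of 1.06 ± 0.14 in 2023 and 1.38 ± 0.15 in 2024, OSHAP5C 1.39 ± 0.29 and 1.66 ± 0.26, and COPT1 1.30 ± 0.15 and 1.24 ± 0.12. As these genes were chosen for their likeness to LYCE, the values are a description. Among the 5 genes themselves, PSBS1 and VDE were the closest pair (0.205) and LYCE and PSBS2 the most distant (1.1), and PSBS1 and PSBS2 were 0.666 apart.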

How the data were processed

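PolyA RNA of single rice leaves was sequenced from directional libraries, per the labels' protocols. The deposited values are raw counts per locus of the Rice Annotation Project, called unique exon reads in the labels and made by the authors on build IRGSP 1.0, per the submitters' processing notes. No source used here gives the aligner, the counter or the use of strand. Columns of 2 libraries that no label describes were not used. Replicates differed beyond sampling noise (chi-square per gene 2.8 to 32.9).

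Low counts were removed by filterByExpr with a minimum count of 10 and a minimum total of 15. The minimum count is applied as a CPM cut-off in at least as many libraries as the smallest group holds. After TMM scaling, genes were tested with the quasi-likelihood test of edgeR 4.0.16 (robust, R 4.3.3, data.table version 1.17.8), within each year for the regimes and in 1 fit of all 14 libraries for the years. P-values were adjusted over all tested genes (Benjamini-Hochberg), with a threshold of 0.05. Errors of fold changes are SE, and those of levels are SD. The code was tested on simulated data. The members, the lists and the tests were chosen with earlier results of these data known.

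All 5 members were named. Of each list the called genes were named, up to 6 by adjusted p, and 2 loci were left out, one described as another protein and one not analysed here. Likeness used log2 CPM with a prior count of 2 and named 3 genes per member. Alternatives were DESeq2 1.42.0, its size factors, plain totals, no filter, a filter at 5 CPM, a replicate block, other sets of libraries and each library left out.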

Additional observations from a re-analysis of the deposited data

Results flagged for a closer look

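Each group of 4 libraries was searched for a single library far from the rest, over 30 pairs of a gene named above and a 2023 group; chance flags about 1 in 20 such groups. There were 4, 3 of them in green manure library 2 of 2023, the library farthest out on the first principal component. LYCE stood at 71.5 CPM there, with the next library at 52.4 CPM. OR stood at 485 CPM against 324 CPM for the next, and CAB2R at 17100 CPM against 9870 CPM. ELIP1 stood at 1130 CPM in chemical fertilizer library 2 of 2023, against 768 CPM for the next. Without green manure library 2, the log2 fold change between the regimes of 2023 was 1.08 ± 0.12 for LYCE, 0.49 ± 0.09 for OR and 1.66 ± 0.23 for CAB2R, against 1.21, 0.66 and 1.93 with it. Without chemical fertilizer library 2, that of ELIP1 was -0.79 ± 0.18, against -0.97 with it. Of 15 genes checked for a difference between the years in the effect of green manure, 0 had an adjusted p under 0.05 in edgeR's quasi-likelihood test.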

How the results depend on the processing

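No fold change of a member or named list gene that was past its threshold changed direction under the alternatives run. The balance of all called genes did change. With plain totals most calls between the regimes were lower with green manure, 515 of 681 in 2023 and 985 of 1188 in 2024. In the main fits most were higher, 302 of 460 and 364 of 626. In the regime comparison of 2023, 835 genes were called with DESeq2, 788 without green manure libraries 1 and 2 and 723 with all 14 libraries in 1 fit, against 460. In that of 2024, 1188 were called with plain totals and 975 with no filter, against 626. The carotenoid list of 2024 had 4 calls with DESeq2, 3 with plain totals, 3 with no filter and 2 at 5 CPM, against 1, and the photoprotection list 7 with DESeq2, against 4. By year with green manure, 11677 genes were called with plain totals, against 7481. The members called by year with chemical fertilizer were 4 with plain totals, 2 without green manure libraries 1 and 2 of 2023 and 2 with only the groups compared, against 1; with green manure 1 was called with only the groups compared, against 2. The cause of these moves was not tested.

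Leaving out 1 library gave 149 to 666 called genes in 2023, 162 to 1603 in 2024, 6043 to 8352 by year with chemical fertilizer and 5733 to 7536 with green manure. It gave 0 to 4 carotenoid genes in either year, 1 to 9 photoprotection genes in 2023 and 1 to 11 in 2024, and 1 to 2 members by year in either regime.

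The replicate numbers were not taken as pairs, since the labels give them no meaning: same-numbered deviations correlated at -0.12 to 0.18 in 2023 and -0.01 to 0.41 in 2024, and 1 of 8 and 4 of 6 libraries matched their own number best, so a pairing in 2024 is unclear. With the replicate block, 344 genes were called in 2023 and 1616 in 2024, with 6 carotenoid and 9 photoprotection genes in 2024; by year 7735 and 7418 were called. Under the block CP26 (adjusted p = 0.0885) and LHCB3 (adjusted p = 0.113) of 2023 were not called. The members with fewest reads were VDE and LYCE, with as few as 218 and 201 in a library.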

Other observations

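The tables hold 2 more loci described as relatives of these genes, singled out after their values were seen. Os01g0716400, described as a violaxanthin de-epoxidase family protein, stood at 63.7 ± 4.11 CPM with chemical fertilizer and 59.1 ± 7.53 CPM with green manure in 2023 (SD, n = 4), and at 64.7 ± 1.95 and 61.8 ± 2.71 CPM in 2024 (n = 3). Its log2 fold change of -0.11 ± 0.10 and -0.08 ± 0.08 did not pass the test (edgeR's quasi-likelihood test, adjusted p = 0.665 and 0.714).

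Os07g0178800, described as an early light-induced protein, went from 1310 ± 362 to 698 ± 165 CPM in 2023 and fell by 0.91 ± 0.19 on the log2 scale (edgeR's quasi-likelihood test, adjusted p = 0.0289). In 2024 it gave -0.51 ± 0.16 (2490 ± 233 against 1760 ± 422 CPM, adjusted p = 0.112). ELIP2 (Os07g0178700), of the same family, gave -0.35 ± 0.21 and -0.24 ± 0.18, neither past the test (adjusted p = 0.472 and 0.545). Near-identical copies can share reads, and how the authors' counting split them is not given in the sources used here, so the values of these early light-induced genes are uncertain.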
